A study of Mus musculus with 9 samples.

Results

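The peaks described here lie in a stretch of 3 Mb on mouse chromosome 4 (mm10, chr4:145000000-148000000) that holds a large cluster of zinc finger genes. Every peak of the 7 peak lists that overlapped this interval was taken, which gave 442 of 232759 peaks. They came from 4 chromatin immunoprecipitation (ChIP-seq) libraries of TWIST1-overexpressing cells (OE, 27, 155, 125 and 21 peaks in replicates 1 to 4), 2 ChIP-seq libraries of Twist1-null cells (KO, 20 and 19 peaks in replicates 2 and 3) and 1 KO input library (75 peaks). Input is sonicated chromatin sequenced without an antibody. The interval was chosen by the number of KO ChIP peaks it holds, so peak counts, shares and folds are a description and were not tested.

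Cells of both groups were mouse embryonic stem cells, labelled C57BL/6, that lack the endogenous Twist1 (Twist1-/-). The OE line, made from A2loxcre cells, also carried a Flag-tagged Twist1 that doxycycline switches on, and KO cells had no such cassette. Both were differentiated in suspension for 3 days, to what the labels call embryoid bodies and the design text neuroepithelium, with doxycycline for the last 16 h, and both were precipitated with the same TWIST1 antibody. The design text speaks of biological replicate experiments; how many clones the lines stand for is not given in the sources used here, and the inputs of the OE cells were not analysed here.

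KRAB zinc finger proteins are a large family of mammalian transcription repressors. They bind DNA through tandem C2H2 zinc fingers and, through the KRAB domain, recruit the corepressor TRIM28, which leads to silencing of retrotransposons. Their genes multiply by tandem duplication, so that a cluster holds many copies of closely alike sequence in which short sequencing reads can fit at several places. TWIST1 is a bHLH transcription factor that binds the E-box, CANNTG, as a dimer.

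The RefSeq gene table (GRCm38.p6) put 28 protein-coding genes, 50 pseudogenes, 6 transcribed pseudogenes and 8 long noncoding RNA genes in the interval. Of the protein-coding genes 17 carry a zinc finger name (Zfp or Rex2), from Zfp990 to Zfp933, over 2.34 Mb. The cluster is flanked on the left by Vps13d (a lipid transfer protein needed for mitochondrial clearance), Tnfrsf1b (TNF receptor 2) and Tnfrsf8 (the receptor CD30). On the right follow Miip, the retrovirus restriction gene Fv1, the mitochondrial fusion gene Mfn2, the collagen lysyl hydroxylase gene Plod1, 2510039O18Rik and the natriuretic peptide gene Nppb.

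How alike the copies are can be read from their promoter windows (RefSeq, GRCm38.p6, 250 bases before to 50 after a transcript start). The windows of Rex2 (chr4:147021600-147021899, plus strand) and Zfp600 (chr4:146156577-146156876, plus strand) are shown because they lie far apart and yet are nearly the same. In a global alignment 299 bases were identical, none was mismatched and 1 base in each had no partner, which is the base in capitals.
Rex2: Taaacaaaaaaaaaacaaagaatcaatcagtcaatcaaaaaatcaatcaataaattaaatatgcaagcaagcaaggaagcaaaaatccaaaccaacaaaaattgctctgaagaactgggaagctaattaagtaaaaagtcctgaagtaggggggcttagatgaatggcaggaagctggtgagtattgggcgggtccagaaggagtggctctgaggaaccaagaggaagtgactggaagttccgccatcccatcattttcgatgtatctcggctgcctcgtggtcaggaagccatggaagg
Zfp600: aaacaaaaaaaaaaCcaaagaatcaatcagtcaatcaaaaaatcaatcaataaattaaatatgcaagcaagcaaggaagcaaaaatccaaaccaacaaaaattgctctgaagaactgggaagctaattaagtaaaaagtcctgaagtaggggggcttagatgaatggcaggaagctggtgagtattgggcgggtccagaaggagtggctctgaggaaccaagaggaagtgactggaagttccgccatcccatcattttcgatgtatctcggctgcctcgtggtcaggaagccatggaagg
Of their 36-base runs, on either strand, 97.7% (Rex2) and 94.3% (Zfp600) also occur in the promoter window of another gene. Among the 16 windows of zinc finger genes in the interval (13 genes) 12 share such a run with another gene's window. The median share of runs was 30.8% over these 12 and 26.0% over all 16. Sharing was not confined to zinc finger genes. Of the 24 other windows of the interval 9 (37.5%) share any, up to 66.4% of runs at 4933438K21Rik. Of all 32851 promoter windows on the main chromosomes 9.87% share any. Windows of the same gene or overlapping windows were not counted as another gene.

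The 3 windows printed next are those on which peaks of OE libraries 1 and 4 lay. Capitals mark each E-box CANNTG, a motif that reads the same on both strands. Gm13165, a long noncoding RNA gene of the cluster (chr4:146239954-146240253, minus strand), and 2510039O18Rik, a gene of the right flank (chr4:147940645-147940944, plus strand), were touched by a peak in all 4 OE libraries. The first window of Zfp982 (chr4:147442864-147443163, plus strand) was touched in OE libraries 1 and 4.
Gm13165: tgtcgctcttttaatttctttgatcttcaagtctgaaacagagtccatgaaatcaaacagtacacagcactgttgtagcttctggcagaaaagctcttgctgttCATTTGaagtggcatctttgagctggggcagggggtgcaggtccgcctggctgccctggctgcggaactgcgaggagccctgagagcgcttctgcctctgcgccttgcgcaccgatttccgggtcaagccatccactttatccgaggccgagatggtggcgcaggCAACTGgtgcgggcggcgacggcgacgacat
2510039O18Rik: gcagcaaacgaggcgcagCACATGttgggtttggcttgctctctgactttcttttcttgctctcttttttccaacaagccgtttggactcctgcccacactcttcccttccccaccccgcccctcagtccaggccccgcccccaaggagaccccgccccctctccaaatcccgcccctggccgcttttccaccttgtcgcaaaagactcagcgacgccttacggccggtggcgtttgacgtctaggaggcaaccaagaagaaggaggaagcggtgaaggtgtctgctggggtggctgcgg
Zfp982: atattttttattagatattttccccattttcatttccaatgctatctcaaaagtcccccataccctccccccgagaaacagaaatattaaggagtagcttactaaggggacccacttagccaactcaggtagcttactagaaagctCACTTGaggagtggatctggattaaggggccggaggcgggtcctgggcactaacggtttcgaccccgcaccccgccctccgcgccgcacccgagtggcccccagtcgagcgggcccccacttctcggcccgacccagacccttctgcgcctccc
Fewer zinc finger windows held an E-box: 6 of the 16 zinc finger windows (37.5%) held at least 1, against 22 of the 24 other windows of the interval (91.7%) and 72.3% of all windows. Rex2 and Zfp600, above, hold none. Windows are not independent units here. The 24 other windows come from 16 genes, and some overlap each other. Of the zinc finger windows 12 share 36-base runs with another gene's window, and 2 of these hold an E-box. A motif match is a description of letters and was not set against binding.

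**Figure D1:**
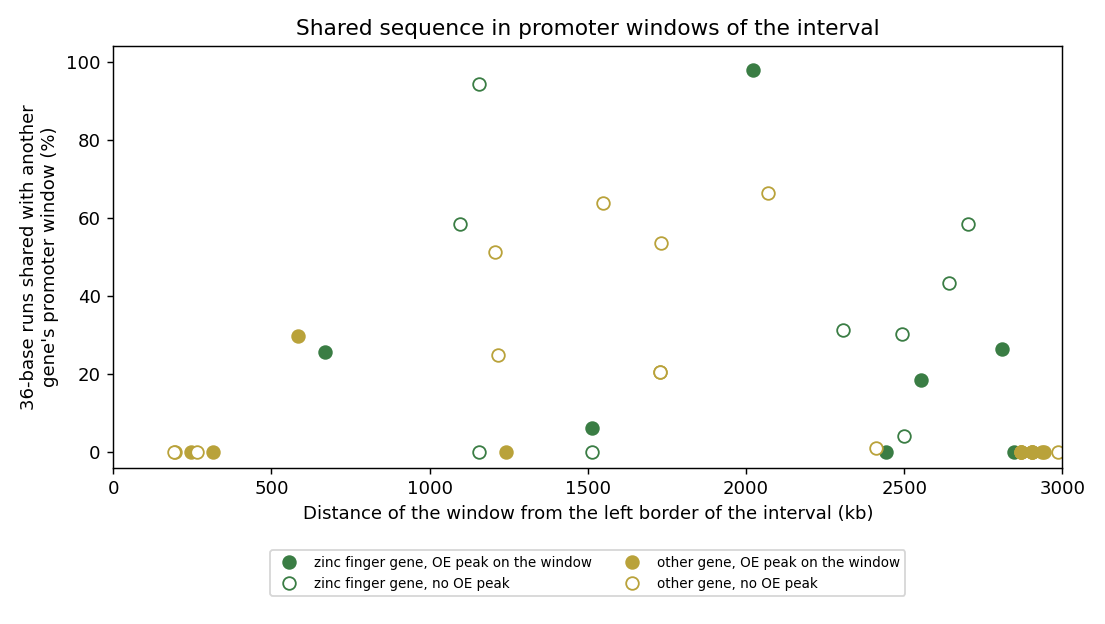
Each point is a promoter window of the interval, by its distance from the left border (kb, x axis) and by the percent of its 36-base runs that also occur in another gene's promoter window (y axis); filled points were touched by a peak of an OE library. Windows of the flanks sit at 0, the zinc finger windows reach 97.7% at Rex2, and other windows within the cluster reach 66.4% at 4933438K21Rik.

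All KO ChIP peaks of chromosome 4 lay in this interval. In KO library 2 all 20 chromosome 4 peaks were there, and in KO library 3 all 19. They were 21.3% (95% exact Clopper-Pearson interval 13.5 to 30.9%) and 30.6% (19.6 to 43.7%) of the 94 and 62 peaks on the main chromosomes, a mean of 26.0% ± 6.62 (SD, n = 2). The interval is 0.110% of the annotated length. In the KO input its share was 4.57% (3.61 to 5.69%), which was 48.1% of the input's chromosome 4 peaks. In the OE libraries 0.121%, 0.145%, 0.143% and 0.149% of peaks lay there, a mean of 0.140% ± 0.0126 (SD, n = 4), close to the share by length. The confidence intervals cover counting error only.

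The KO peaks were weak and narrow in range. Fold enrichment is the authors' ratio of the signal at a peak's summit to the local background. In KO library 2 the lowest, median and highest folds in the interval were 2.40, 3.40 and 5.90, and in KO library 3 they were 2.10, 3.03 and 4.27. None was in the top 10% of its list. Elsewhere the median folds of these libraries were 3.63 and 2.79 and the highest 34.3 and 15.8. Median widths in the interval were 308 and 399 bp.

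Both KO libraries marked many of the same sites. Of the 20 peaks of KO library 2, 12 (60%) were overlapped by a peak of KO library 3, against 44.7% over all its peaks. Of the 19 peaks of KO library 3, 13 (68.4%) were overlapped by a peak of KO library 2, near the 67.7% over all its peaks. Merging peaks that shared at least 1 bp gave 12 regions with both KO libraries and 14 with a single KO library. Over all main chromosomes 0.0334% of merged regions held both, and 12 of those 40 regions lay here. Among regions with any KO peak, 12 of 26 held both here, and 28 of 81 on the rest of the main chromosomes. Summits of the 2 libraries were a median of 116 bp apart within a region (5 to 1181 bp).

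From left to right, the first such regions lay in Gm42346, a predicted coding gene at the left end of the cluster. At chr4:145433604-145433939 the folds were 2.40 and 2.21 in KO libraries 2 and 3, and at chr4:145446817-145447533 they were 3.53 and 2.98. The region with the highest fold in each of the 2 libraries among these 12 stood outside any protein-coding gene, 125411 bp from Zfp980 (chr4:145829499-145830086, 4.71 and 4.27). It was the only 1 of the 12 at which both libraries had their commonest, genome-wide background level (4.73 and 5.09 fragments).

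From there to just past Zfp992 lay 3 further regions. Left of Zfp987, 46944 bp away, chr4:146050141-146050592 had folds of 3.34 and 3.03. The widest region, chr4:146055601-146057605, had 3.27 and 3.03, with 1 peak in KO library 2 and 2 in KO library 3, of which the higher is given. Just right of Zfp992, 1698 bp away, chr4:146470574-146471188 had 3.26 and 3.15.

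The other 6 lay at Zfp993, Zfp978 and Zfp982. Inside Zfp993, chr4:146926146-146926666 had 2.64 and 2.92. At the right end of Zfp978 a region inside the gene (chr4:147389965-147390418) had 2.90 and 2.59, and the next, 403 bp beyond its end (chr4:147392143-147392743), had 4.11 and 3.56. Zfp982 held 3 of the 12, more than any other gene. Their folds were 3.11 and 3.46 at chr4:147475865-147476186, 4.23 and 3.56 at chr4:147508366-147508794, and 3.64 and 3.66 at chr4:147509140-147509590. Over all 12, KO library 2 had the higher fold in 9 and KO library 3 in 3, and the log2 ratio of the folds ran from -0.15 to 0.25. Recovered fragment pileups at the summits ran from 26 to 80 in KO library 2 and from 25 to 72 in KO library 3.

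The 14 sites of a single KO library were 8 from KO library 2 and 6 from KO library 3. The strongest KO peak of the interval was in KO library 2 inside Zfp992 (chr4:146467412-146467698, fold 5.90), and its second strongest inside Rex2 (chr4:147030740-147030958, 5.55); KO library 3 had no peak at either. The strongest of the 6 in KO library 3 lay 12517 bp from Zfp992 (chr4:146436422-146436676, 3.38), close to but not touching a peak of KO library 2 (chr4:146435485-146435734, 3.10). The weakest KO peak of the interval, 3159 bp from Rex2 in KO library 3 (chr4:147063359-147063960), had a fold of 2.10 over the second highest background of that list's interval peaks, 27.6 fragments.

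None of the 39 KO peaks was overlapped by any OE peak or by any KO input peak. For KO library 2, 0 of 20 were overlapped by OE (54.3% over all its peaks) and 0 of 20 by the input (25.5%). For KO library 3 it was 0 of 19 by OE (45.2%) and 0 of 19 by the input (29.0%). On chromosome Y, which also held many KO peaks, all 21 KO peaks were overlapped by an OE peak and 6 by the input. On the remaining chromosomes 58 of 96 were overlapped by OE and 36 of 96 by the input. The interval therefore holds 12 of the 19 regions (63.2%) that both KO libraries and no other list have. Whether the KO sites are background was not tested, and they are called here by their place.

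KO sites lay among the others without touching them. The nearest OE peak was a median of 5876 bp from a peak of KO library 2 (45 to 27243 bp) and 5258 bp from a peak of KO library 3 (722 to 36568 bp). The nearest input peak was a median of 7294 and 4195 bp away. With any peak within 1 kb counted as shared, a limit chosen after seeing the data, 5 of the 39 would be shared. OE and input peaks together covered 3.79% of the interval, and KO peaks 0.389%.

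**Figure D2:**
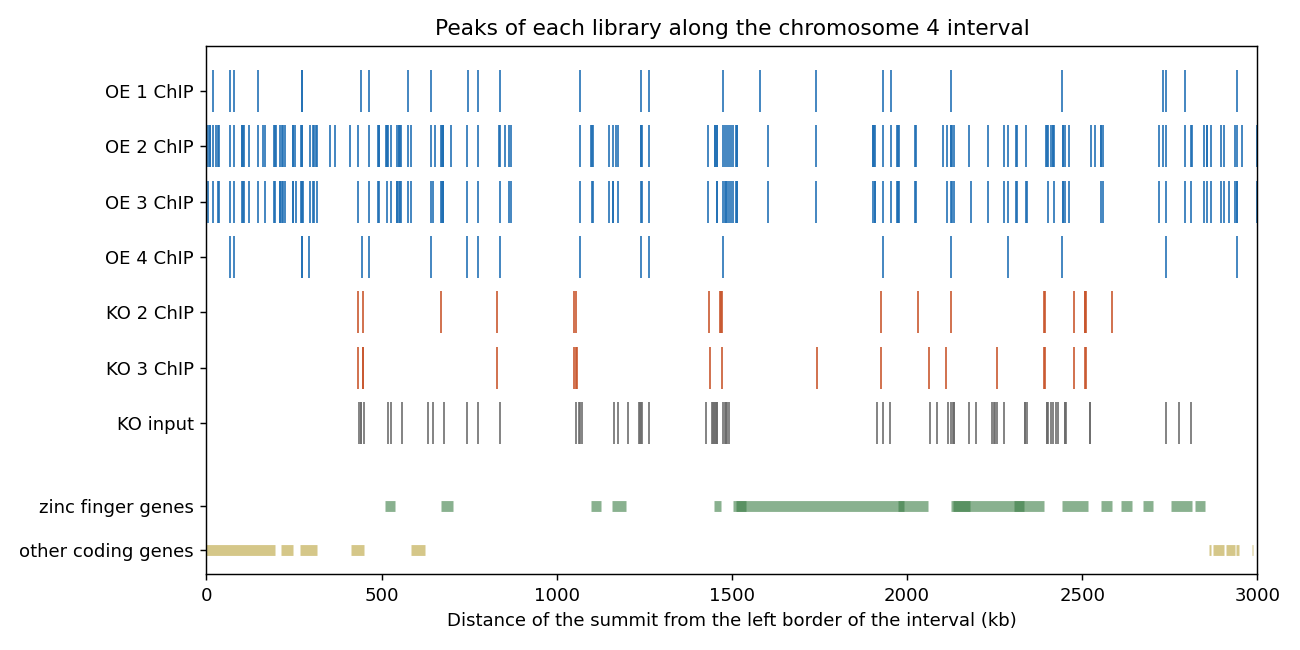
Each vertical line is a peak summit, by its distance from the left border of the interval (kb, x axis), in a row for each library, with the spans of zinc finger and other protein-coding genes below. KO and KO input peaks start only at Gm42346, while OE libraries 2 and 3 also fill the flanks.

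**Figure D3:**
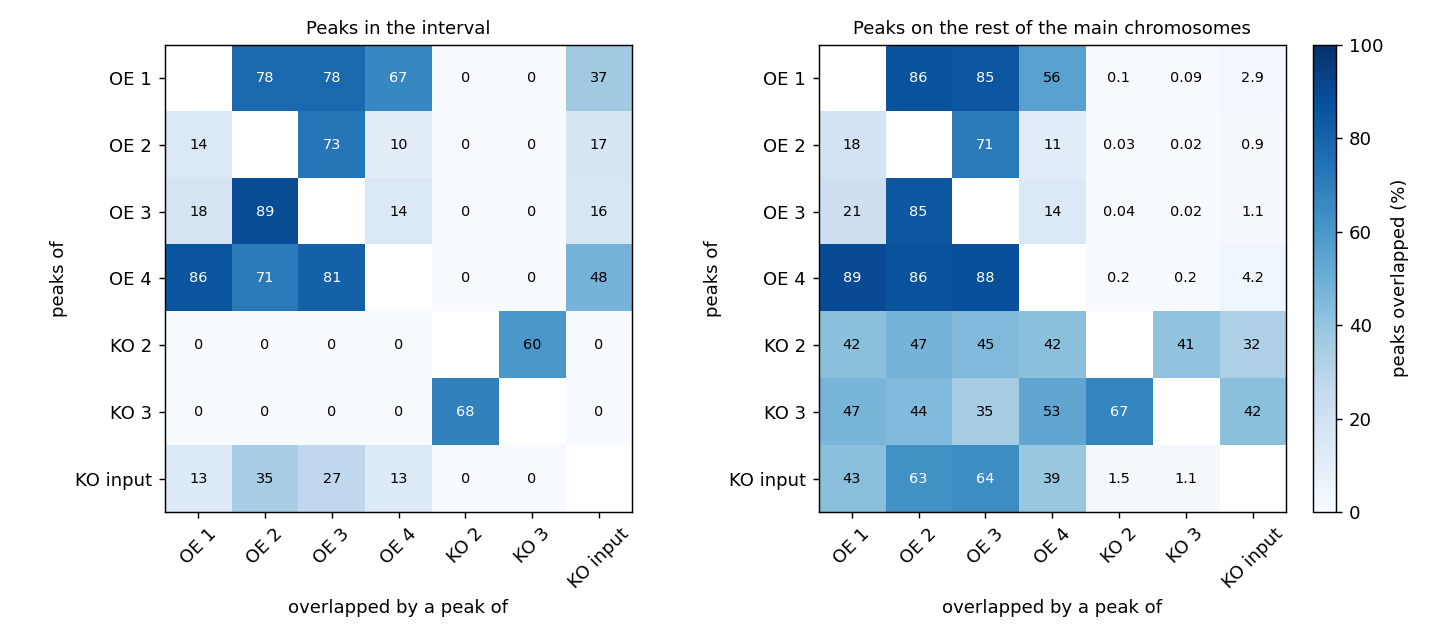
Each cell gives the percent of the peaks of the row's library that were overlapped by a peak of the column's library, in the interval (left) and on the rest of the main chromosomes (right). In the interval all cells between KO ChIP and the other lists are 0.

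The KO input marked another set of sites in the same cluster. Its 75 peaks had folds of 1.87 to 8.85 with a median of 2.58, below its median of 3.49 elsewhere. Of the 75, 28 were overlapped by an OE peak (37.3%, against 71.8% over all its peaks), and 47 regions (62.7%) had no other library, against 27.4% on the rest of the main chromosomes. By gene, 14 input peaks lay on or within 1 kb of Zfp978 and 5 at Zfp992. Zfp978 is annotated over 267146 bp, including all of Zfp991 (4 input peaks), and Zfp992 over 20411 bp. Its strongest peak lay 64662 bp from Zfp600 (chr4:146263172-146263978, fold 8.85), where all 4 OE libraries also had a peak.

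OE peaks were overlapped by the input in a larger share here than over the genome. In OE libraries 1 and 4, 10 of 27 and 10 of 21 peaks were overlapped, against 2.92% and 4.22% over all their peaks. In OE libraries 2 and 3 it was 26 of 155 (16.8%) and 20 of 125 (16.0%), against 0.92% and 1.14%. Of the 16 regions with a peak in all 4 OE libraries, 10 held an input peak (62.5%), against 5.19% over the main chromosomes. These 10 all lay within the span of the zinc finger genes.

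The 5 strongest of them, by mean rank of fold over the lists, are given before the others. The first, which holds the Gm13165 window printed above (chr4:146239375-146240326), had folds of 31.9, 9.72, 4.26 and 31.3 in OE libraries 1 to 4 and 4.42 in the input. The next lay 15328 bp from Zfp984 (chr4:147738345-147739206), with 35.3, 5.80, 4.92 and 30.6, and 6.70 in the input. OE libraries 1 and 4, which have the low background, stood above OE libraries 2 and 3 at both.

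The third lay 29603 bp from Zfp987 (chr4:146066964-146068196), with folds of 28.1, 6.20, 5.92 and 23.6 and an input fold of 4.14. The region with the strongest input peak had 15.5, 7.94, 5.57 and 17.3. The fifth, 70213 bp from Zfp980 (chr4:145774234-145775086), had 14.9, 6.18, 5.06 and 16.6, with 6.00 in the input.

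At the other 5 the OE libraries lay closer together. The region 132714 bp from Zfp980 (chr4:145836874-145837441) had 9.78, 6.06, 6.84 and 9.66 in OE libraries 1 to 4 and 6.88 in the input. Inside Zfp993 (chr4:146931776-146933036) the folds were 11.4, 5.81, 8.96 and 6.25, with 3.89 in the input, and 5464 bp from Zfp992 (chr4:146474651-146475795) they were 7.15, 8.39, 6.33 and 6.01, with 5.07 in the input. These were the 2 regions at which OE libraries 1 and 4 did not both stand above OE libraries 2 and 3. In 8 of the 10 regions both OE 1 and OE 4 exceeded both OE 2 and OE 3, and mean folds ran from 5.72 to 19.3. How often this order holds over all regions with the 4 OE libraries was not counted. Median folds of all peaks outside the interval were also higher in OE libraries 1 and 4 (9.48 and 9.53) than in OE libraries 2 and 3 (5.02 and 5.24). Folds of lists with unlike background, and in some regions with summits apart, stand side by side as a description. By rank within its own list the median position of the 10 was 65.2, 62.5, 57.9 and 63.8 on a scale of 100 in OE libraries 1 to 4, and 93.3 in the input.

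The 6 regions with all 4 OE libraries and neither KO nor input lay mostly in the flanks. Over the main chromosomes 8.66% of merged regions are of this kind, and here it was 6 of 244. The bases are unlike: here 47 regions held the input alone and 26 KO ChIP alone. On the rest of the main chromosomes these were 415 and 29 of 119504. The strongest lay in Tnfrsf8 (chr4:145271232-145272762), with folds of 43.9, 140.0, 155 and 29.5 in OE libraries 1 to 4, a mean of 92.0 ± 64.4 (SD, n = 4). The next lay in Vps13d (chr4:145066655-145067596), with 24.5, 102, 109.7 and 14.1. All 4 libraries had high folds at both, and here OE libraries 2 and 3 stood above OE libraries 1 and 4.

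A second region in Tnfrsf8 (chr4:145272936-145273964) had 8.98, 24.4, 28.6 and 4.54, and a second in Vps13d (chr4:145078900-145079599) had 9.33, 23, 25.4 and 7.17. The fifth, 15561 bp from Gm13212 (chr4:145640502-145641386), was the only 1 inside the zinc finger span, with 11.8, 3.86, 4.89 and 14.3. Its OE peaks were merged through their edges, and the summit of OE library 1 lay 445 and 474 bp from those of OE libraries 2 and 3, so these folds belong to different places. The region over 2510039O18Rik, whose promoter window is printed above, came last, with 17.5, 3.60, 4.45 and 9.99, and there too the 4 OE peaks had no base in common. In the other 4 of the 6, and in all 10 regions with an input peak, the OE peaks had a base in common. A shared base does not put the summits at the same place. In the 10, OE and input summits spanned 53 bp at the strongest input peak to 588 bp at the Gm13165 region. Some of those folds can therefore also belong to different places.

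**Figure D4:**
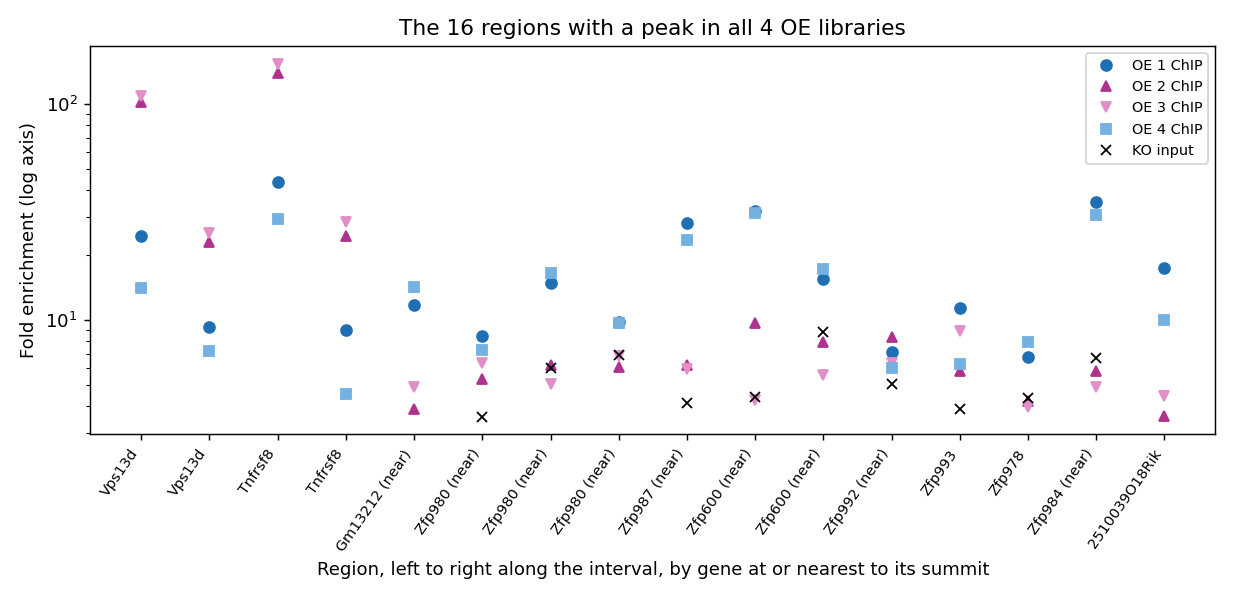
Fold enrichment (log axis) of each OE library and of the KO input at the 16 regions with a peak in all 4 OE libraries, from left to right along the interval; "near" marks regions outside a gene. OE 2 and OE 3 lead at Vps13d and Tnfrsf8, and OE 1 and OE 4 lead at 8 of the 10 regions with an input peak. The order over all such regions of the genome was not counted, and summits within a region can lie apart.

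The commonest kind of region held OE libraries 2 and 3 alone. Of 244 merged regions, 77 (31.6%, against 44.9% over the main chromosomes) held peaks of these 2 libraries only, 35 of OE library 2 only and 12 of OE library 3 only. The 244 include 47 regions of the input alone and 26 of KO ChIP alone, kinds that are rare elsewhere. The lower share here is therefore not a trait of the OE peaks. Within the span of the zinc finger genes the highest of these folds lay where Zfp993 and Rex2 overlap in the annotation (15.6 and 16.2) and at Zfp987 (12.5 and 14.2). Just left of that span, 17227 bp from Zfp990, a region had 15.4 and 9.14. All 3 are named here after their values were seen. Of the 17 zinc finger genes, 15 had an OE peak on the gene or within 1 kb (76.0% of all protein-coding genes) and 3 had peaks of all 4 OE libraries (30.6%). A KO peak lay at 7 of the 17 (0.137% of all protein-coding genes), peaks of both KO libraries at 3 (0.0411%) and an input peak at 9 (4.78%). Of the 11 other protein-coding genes of the interval 10 had an OE peak, 4 had peaks of all 4 OE libraries, and 1, Gm42346, had KO and input peaks. Zfp979 and Zfp534 had none of any kind and lie in a stretch of 133 kb without a listed peak. The longest such stretch, 180 kb, lay between Zfp980 and Zfp987.

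Among the named flanking genes the OE lists alone had peaks. Vps13d, as far as it lies in the interval, had 4, 18, 14 and 2 peaks in OE libraries 1 to 4, Tnfrsf8 had 2, 8, 8 and 3, and Tnfrsf1b had 5 and 6 in OE libraries 2 and 3. Miip and Fv1 shared 1 peak in each of OE libraries 2 and 3, Mfn2 had 2 in each, and Plod1 had 1 and 2. Nppb had no peak. Nppa and Clcn6 lie outside the interval. No KO or input peak lay at any of these genes. Gm42346, left of the first zinc finger gene, differed from them, with 1, 2, 1 and 1 OE peaks, 2 and 3 KO peaks and 4 input peaks. Counts of genes with a peak depend on the length of the lists.

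On the promoter windows of the interval no KO or input peak was seen. These windows cover 13 of the 17 zinc finger genes. Zfp978 and Zfp992, with 14 and 5 input peaks, had no window, nor had Zfp990 and Zfp991. The promoters of these genes were not examined. None of the 40 windows was touched by KO library 2 (0.00304% over all windows), KO library 3 (0.0%) or the input (1.56%). OE libraries 2 and 3 touched 18 and 17 of the 40 (39.1% and 40.4% over all windows). OE libraries 1 and 4 touched 3 each (16.3% and 13.0% over all windows). Of the 12 zinc finger windows that share 36-base runs with another gene, 5 were touched in OE libraries 2 or 3 and none in OE libraries 1 or 4. The Rex2 window was touched by peaks of fold 3.33 and 2.41 in OE libraries 2 and 3, while the Zfp600 window, alike but for 1 base, was touched in no library. Both summits at Rex2 lay near 2021.23 kb from the left border, before the window's start at 2021.6 kb. These folds therefore belong to sequence outside the printed window, which was not compared with Zfp600. How reads that fit both copies were placed is not given in the sources used here.

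The local background was raised across the cluster. It is the level, in fragments, against which the caller set a peak, and was recovered for each peak from its fold and p-value. At peaks in the interval its median was 1.03 to 1.91 times the library's commonest level in the OE libraries (mean 1.46 ± 0.451, SD, n = 4). It was 2.12 and 2.84 times that level in the KO libraries (mean 2.48 ± 0.506, SD, n = 2) and 3.22 times in the input. Of the OE peaks here 37.0%, 56.8%, 55.2% and 38.1% had a background over 1.5 times the commonest level, against 0.453% to 1.41% elsewhere. For KO libraries it was 90% and 94.7% here, but also 55.4% and 67.4% elsewhere.

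In the OE lists the rise lay in the zinc finger span. From the first to the last zinc finger gene the OE medians were 1.70, 2.55, 2.63 and 2.03 times the commonest level, and in the flanks 1.00 in each. KO and input peaks outside that span, all of them at Gm42346, had higher medians than those in it: 4.43 and 4.61 against 2.06 and 2.37 times the commonest level in KO libraries 2 and 3, and 5.98 against 3.10 in the input. OE peaks inside Gm42346 were raised as well, at 8.90 and 10.4 fragments in OE libraries 1 and 4, so the raised stretch begins before the first zinc finger gene. Fragment pileup at the summits was higher too, with medians of 27, 52, 54 and 30 in the interval against 18, 32, 32 and 21 elsewhere in OE libraries 1 to 4. In the KO libraries it was lower here than elsewhere, with 42.5 and 44 against 68 and 99, and in the input higher, with 61 against 28. Median folds were lower here than elsewhere in every OE list: 8.98 against 9.48, 4.23 against 5.02, 4.29 against 5.24 and 7.93 against 9.53. This was not particular to the zinc finger span. In the flanks the medians were 9.33, 4.55, 4.61 and 6.54 in OE libraries 1 to 4. In the span they were 8.73, 4.09, 4.19 and 9.66, the last above the median elsewhere. The number of copies of the cluster in these cells and the placing of reads were not tested as a source of the raised background.

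As a log2 ratio of the median inside the interval to that outside, the background was 0.49 ± 0.46 in OE (SD, n = 4) and -0.24 ± 0.47 in KO (SD, n = 2), a difference of 0.73. The exact permutation test over 15 splits, two-sided, gave p = 0.2 (0.2 after Benjamini-Hochberg adjustment over 2 tests), and the smallest p this design allows is 0.0667. The sign rests on the base: KO peaks elsewhere also sit on raised background, and against the commonest level, a base chosen after seeing the data, the difference was -0.80 (exact permutation p = 0.133). The log2 ratio of median widths inside to outside was -0.02 ± 0.086 in OE and 0.12 ± 0.020 in KO (SD, n = 4 and n = 2), with an exact permutation p = 0.133 (0.2 adjusted). Within the zinc finger span, also chosen after seeing the data, the background difference was 1.60 (exact permutation p = 0.0667) and the width difference 0.04 (exact permutation p = 0.867), of opposite sign to that over the interval. Without KO library 3 the background difference was 0.395 (exact permutation p = 0.8).

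**Figure D5:**
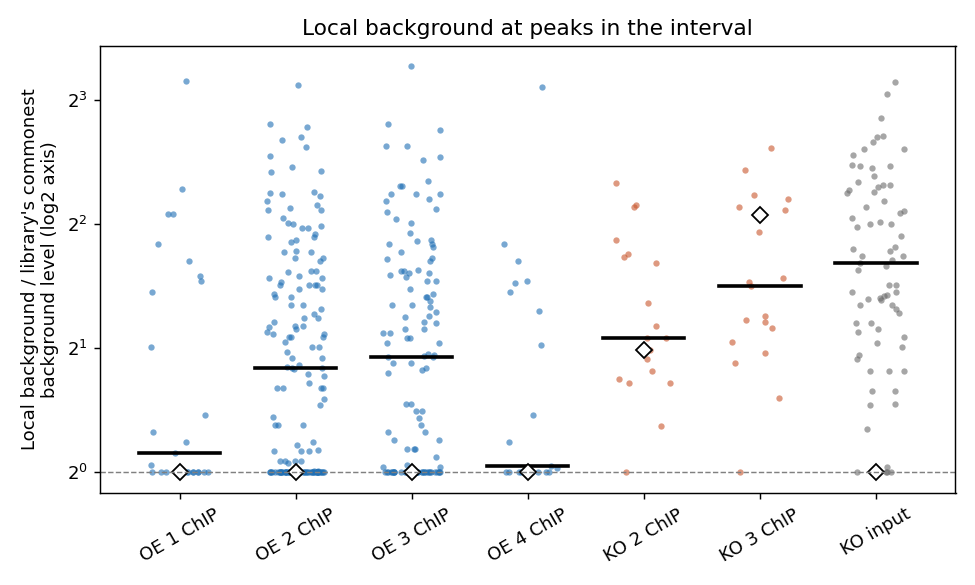
Points are peaks of the interval, bars their median, by library (x axis); the y axis is the local background divided by the library's commonest level (log2 axis), and diamonds are the median of peaks elsewhere. OE peaks elsewhere sit at the commonest level, while in the interval many OE peaks and nearly all KO and input peaks lie above it.

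The peaks nearest to each border, inside and outside, were all of OE library 3. The last peak left of the interval had a fold of 31.9 (chr4:144998443-144999728) and the first inside 4.13 (chr4:145005725-145005976). On the right the last peak inside had 4.29 (chr4:147997304-147997821) and the next outside 3.34 (chr4:148033699-148034167). All 4 were at the commonest background level of that library. The libraries as a whole had commonest background levels of 1.00 and 1.20 fragments in OE libraries 1 and 4, 4.73 to 5.38 in OE libraries 2 and 3 and the KO libraries, and 6.46 in the input, in place of read totals, which are not given.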

How the data were processed

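ChIP and input libraries were deposited as narrow peak lists, each called on a single library. The submitters' processing notes name MACS2, BWA, Trimmomatic and Picard, and the builds mm10 and GRCm38.p5. Versions, settings, the caller's control and the placing of reads with several matches were not stated. The deposited values are the authors' fold (a ratio), p-value and q-value as −log10 (q at most 0.01), and the authors' score, used only to check the layout.

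Peaks were read with Python 3.11.15, numpy 2.4.6, pandas 2.3.3 and scipy 1.17.1. Promoters were aligned with Biopython 1.88 and figures drawn with matplotlib 3.10.9. Positions count from 1, and overlap means at least 1 bp on 21 main chromosomes. Pileup and background were solved from fold and p (Poisson upper tail, pseudocount 1). The pileup came within 0.05 of a whole number for 87.1% to 100.0% of each list and for all peaks of the interval. The steps were tested on simulated data. Depth per library is unknown, so exact intervals cover counts of peaks only.

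The interval, lists and tests were chosen with earlier results of these data known. Named were the regions of both KO libraries, the 5 leading regions shared by most lists, the 5 leading regions of all 4 OE libraries alone, each list's strongest peak, border peaks, their genes and a list of flanking genes. Other sites described (the remaining regions of these kinds, single KO sites, Gm42346) were picked after their values were seen. Alternatives covered borders, q limit, overlap, replicates and the base of the background. The p-values reflect the spread among these 6 ChIP libraries alone.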

Additional observations from a re-analysis of the deposited data

How the results depend on the processing

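Of 85 values under alternative settings, 75 were labelled the same, 8 moved and 2 changed sign. The label meant the same sign for a tested difference. For a count it meant a value within a set ratio, and for a share or fold a value within the SD. The tested differences could not pass the threshold of 0.05 under any setting, as the smallest p allowed is 0.0667. The 0 shared KO peaks could not rise under a stricter q limit or overlap. Widening the interval by 500 kb on each side raised the mean number of OE peaks from 82 to 133 and their share to 0.215%, and the span of the zinc finger genes alone held a mean of 54. At −log10 q of at least 5 a mean of 11 KO peaks remained in the interval, with a mean median fold of 3.55, and 6 regions had both KO libraries. With each list shortened to its 62 leading peaks by p the OE share was 0% and the KO share 21.8%. With peaks within 1 kb counted as shared, 5 KO peaks were shared; this setting, the zinc finger span and the commonest background level were chosen after seeing the data. The background difference was -0.801 against the commonest level, and the width difference 0.038 in the zinc finger span. The background difference was 1.60 in that span (exact permutation p = 0.0667), 0.238 in the widened interval and 0.384 with whole pileups only.

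Leaving out each replicate in turn gave a mean of 57.7 to 102 OE peaks and 19 to 20 KO peaks. KO shares were 21.3% to 30.6% and OE shares 0.136% to 0.146%. Mean median folds were 5.49 to 7.07 (OE) and 3.03 to 3.40 (KO). The count of shared KO peaks stayed at 0, which was fixed in advance, since leaving out a list can only remove overlaps. The background difference ran from 0.395 to 1.06 and the width difference from -0.161 to -0.100. With a replicate block over the pairs 2 and 3 the background difference was 1.12 and the width difference -0.125 (exact sign flips, p = 0.5 for each, the smallest that 2 pairs allow). So few pairs cannot show whether the numbers pair the samples, and no call could change. The comparison with the rest of chromosome 4 could not be run, since no KO peak lies there, nor the count of regions of both KO libraries without either of them. Read depth is unknown, and where the background is raised a site needs more fragments to be listed.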

Other observations

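The KO lists held other crowded places besides the interval. By windows of 1 Mb, both lists together had 17, 14 and 8 peaks in the windows of the interval that start at 147, 146 and 145 Mb. On chromosome 9 the window from 3 Mb held 16, on chromosome 8 that from 20 Mb held 10, and on chromosome 12 that from 115 Mb held 7. Chromosome Y held 10 in the first window and 10 in that from 90 Mb.

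Peaks were counted along the interval. In steps of 500 kb from the left border the input had 4, 9, 27, 3, 27 and 5 peaks, KO library 2 had 2, 2, 6, 1, 5 and 4, and KO library 3 had 3, 1, 5, 2, 6 and 2. OE library 2 had 43, 28, 22, 15, 26 and 21, with most in the first step, which holds Vps13d and Tnfrsf8. The input and both KO libraries had most peaks in the same 2 steps, from 1000 to 1500 kb (Zfp987, Zfp600 and Zfp992) and from 2000 to 2500 kb (Zfp978 and Zfp982), while no KO peak overlapped an input peak.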
